A study of Homo sapiens with 9 samples.

Results

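Condensin is the ring-shaped protein machine that loops and compacts DNA into mitotic chromosomes. Its 8 human subunit genes, SMC2, SMC4, NCAPD2, NCAPG, NCAPH, NCAPD3, NCAPG2 and NCAPH2, were taken by symbol from a table of 62666 genes, and all 8 were among the 17910 genes that passed the filter on low counts. They were followed in 3 human breast epithelial lines with 3 polyadenylated RNA-seq libraries each. MCF10A is a spontaneously immortalised, non-tumorigenic line and was grown in medium with 5% horse serum. MCF10AT1 is a derivative of MCF10A that carries an activated HRAS transgene and was grown with 2.5% horse serum. MCF10Ca1a is a tumorigenic line derived through xenografts of MCF10AT1 cells and was grown with 5% horse serum. All 3 lines were otherwise kept in DMEM/F12 with insulin, L-glutamine, human epidermal growth factor, hydrocortisone and cholera toxin. The study set the lines side by side as stages of a breast cancer model. Each group is 1 line, and in comparisons with MCF10AT1 the line and the serum cannot be told apart. The labels do not say whether the 3 libraries of a line came from separate cultures, so the tests measure only the spread between these libraries.

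The subunits form 2 complexes around a common core. SMC2 and SMC4 are the paired coiled-coil ATPases of both. Condensin I adds the kleisin NCAPH, which closes the ring, and the HEAT-repeat proteins NCAPD2 and NCAPG, while condensin II adds the corresponding kleisin NCAPH2 with NCAPD3 and NCAPG2. Condensin II is in the nucleus through interphase and starts compaction in prophase, whereas condensin I mostly stays in the cytoplasm until the nuclear envelope breaks down. In dividing epithelial cells many genes of mitosis are transcribed late in the cell cycle, and a short promoter element with the core letters TTTGAA or TTTAAA, the cell cycle genes homology region, is common among them.

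Library depth ran from 32.9 to 69.5 M counts, and the 3 MCF10Ca1a libraries were the shallowest (32.9 to 35.2 M). HRAS averaged 44.0 ± 5.05 TPM (transcript abundance scaled for transcript length and library total; SD, n = 3) in MCF10A, 98.4 ± 5.64 in MCF10AT1 and 189 ± 1.69 in MCF10Ca1a. All 6 epithelial markers reached 1 TPM in every line. Of the 10 leukocyte, endothelial and fibroblast markers, those reaching 1 TPM were CD14 and DCN in MCF10A, these and PECAM1 in MCF10AT1, and PECAM1 alone in MCF10Ca1a. The summed fibroblast list was 26.8 to 30.6 TPM in MCF10AT1 against 3.60 to 3.73 in MCF10A, and the summed endothelial list was 15.6 to 20.8 TPM in MCF10Ca1a against 0.554 to 0.746 in MCF10A. The summed leukocyte list was 7.58 to 9.41 TPM in MCF10A and 0.178 to 0.281 in MCF10Ca1a, with CD3E at 0 in every library. The part of these markers in the results on condensin was not tested. MCF10A replicate 1 stood apart from its partners (chi-square per degree of freedom of gene counts 74.8 against replicate 3 and 32.2 against replicate 2, while replicates 2 and 3 gave 11.6), and it had the highest TPM of its line for all 8 subunits. Changes of the subunits against MCF10A are therefore also given without it. MCF10AT1 replicate 3 differed from its partners too, at 14.7 and 17.1 where replicates 1 and 2 gave 3.61. Leaving it out moved each subunit's log2 change in the comparisons with MCF10AT1 by at most 0.061, and of the calls it ended that of SMC4 in MCF10AT1 against MCF10A (edgeR adjusted p = 0.105).

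On counts, RNA of all 8 condensin subunits was lower in MCF10Ca1a than in MCF10A and than in MCF10AT1. On TPM the differences of NCAPD2 and NCAPD3 between MCF10Ca1a and MCF10AT1 did not pass (limma adjusted p = 0.0928 and 0.482). The fall on counts was largest for the condensin I subunits NCAPH and NCAPG and smallest for the condensin II subunits NCAPD3 and NCAPG2. On that scale MCF10AT1 lay between the other lines for the 6 subunits that belong to 1 complex only, and close to MCF10A for SMC2 and SMC4. In bulk RNA, fewer cells in a state that expresses these genes and less RNA per cell cannot be told apart.

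By edgeR, 7 of 8 subunits were lower in MCF10AT1 than in MCF10A at an adjusted p under 0.05 (edgeR's quasi-likelihood test, Benjamini-Hochberg over all genes tested), where 31.8% of all genes tested were called lower. In MCF10Ca1a against MCF10A 8 of 8 were lower, beside 41.9% of all genes. In MCF10Ca1a against MCF10AT1 8 of 8 were lower, beside 40.3% of all genes. By limma on log2(TPM + 1) the numbers lower in these comparisons were 6, 8 and 6 of 8, beside 33.7%, 34.1% and 28.2% of all genes lower and 18.8%, 41.8% and 45.5% higher. The median of all genes in MCF10Ca1a against MCF10AT1 was 0.13 on that scale, against -0.044 on counts. With a fall of at least 2-fold as well, the counts were 0 of 8 in MCF10AT1 against MCF10A (8.64% of all genes), 6 of 8 in MCF10Ca1a against MCF10A (21.7%) and 4 of 8 in MCF10Ca1a against MCF10AT1 (19.5%). In MCF10Ca1a against MCF10A, SMC2 was close to the 2-fold cut, at -1.02 on the log2 scale and -0.96 without MCF10A replicate 1. The log2 ratio of mean TPM there was -0.88 for SMC2 and -0.82 for NCAPD2, short of 2-fold. The comparisons share libraries, so they are not independent of each other. The median log2 change over the 8 subunits was -0.40, -1.35 and -1.13 in these 3 comparisons in turn, and over all genes tested it was -0.0038, -0.046 and -0.044. CPM values (counts scaled to library size) of the libraries did not overlap, with the first line lower, for 7 of 8 subunits in MCF10AT1 against MCF10A (34.0% of all genes tested), for 8 of 8 when MCF10Ca1a was set against MCF10A (42.3%) and for 8 of 8 when it was set against MCF10AT1 (42.3%). SMC2 was the exception.

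**Figure D1:**
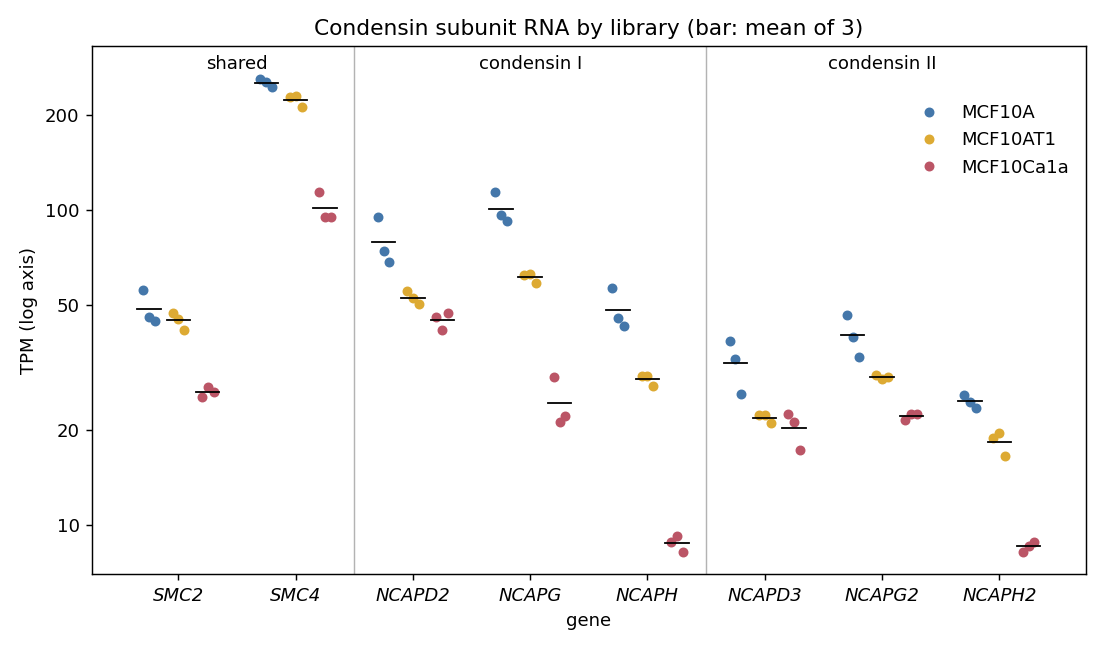
RNA level of each condensin subunit in TPM on a log axis, 1 point per library and a bar at the mean of 3 libraries, by line. SMC4 is the highest subunit in every line, and MCF10Ca1a has the lowest mean for all 8 subunits.

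The shared ATPases differed little between MCF10A and MCF10AT1 and fell in MCF10Ca1a. SMC4 was at 259, 254 and 245 TPM in the MCF10A libraries, at 227, 230 and 212 TPM in MCF10AT1 and at 114, 94.5 and 94.7 TPM in MCF10Ca1a. The ranges of the 3 lines did not overlap. Its fitted change on counts was -1.41 on the log2 scale in MCF10Ca1a against MCF10A (95% interval -1.52 to -1.30, edgeR adjusted p = 9.22e-12) and -1.29 against MCF10AT1 (interval -1.40 to -1.18, edgeR adjusted p = 3.34e-11). In MCF10AT1 against MCF10A it was -0.13 (edgeR adjusted p = 0.0442), a call that was lost in 15 of 20 alternative settings, with an adjusted p of up to 0.561. The changes of SMC4 against MCF10A were -0.11 and -1.41 without MCF10A replicate 1. SMC2 was at 55.5, 45.5 and 44.4 TPM in MCF10A, at 47.1, 45.1 and 41.4 TPM in MCF10AT1 and at 25.4, 27.4 and 26.4 TPM in MCF10Ca1a. The MCF10A and MCF10AT1 libraries overlapped, and all MCF10Ca1a libraries lay below both. The log2 change of SMC2 was -0.045 in MCF10AT1 against MCF10A, with an interval from -0.18 to 0.09 (edgeR adjusted p = 0.566), and its sign turned without MCF10A replicate 1 (0.028). In MCF10Ca1a, SMC2 changed by -1.02 relative to MCF10A (edgeR adjusted p = 3.56e-09, and by -0.96 without MCF10A replicate 1) and by -0.97 relative to MCF10AT1 (edgeR adjusted p = 7.13e-09).

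Each gene has 2 promoter windows in the RefSeq table, and the first of each held the TTTGAA element, read on the opposite strand as TTCAAA, while the second held none. SMC2 (ENSG00000136824.19, chr9:104094260-104141417, plus strand) held it across the start site of that window, from base -3 to 3, and SMC4 (ENSG00000113810.16, chr3:160399274-160434962, plus strand) from -75 to -70. Positions count from 1 at the first transcribed base, with -1 the base before it. The stretches below run from -150 to 10 on GRCh38.p14 in the direction of transcription, at chr9:104094159-104094318 and chr3:160399500-160399659. Capitals mark the element.
SMC2: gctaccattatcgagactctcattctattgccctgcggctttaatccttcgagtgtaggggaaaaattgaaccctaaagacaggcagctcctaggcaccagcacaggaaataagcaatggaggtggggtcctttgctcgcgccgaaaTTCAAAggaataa
SMC4: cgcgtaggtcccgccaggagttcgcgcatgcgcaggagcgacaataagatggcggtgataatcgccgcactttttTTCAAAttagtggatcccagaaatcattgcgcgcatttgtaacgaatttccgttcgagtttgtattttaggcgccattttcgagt

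The 3 subunits of condensin I fell at both steps, the kleisin the most. NCAPH was at 56.4, 45.4 and 42.9 TPM in the MCF10A libraries, at 29.8, 29.7 and 27.7 TPM in MCF10AT1 and at 8.87, 9.25 and 8.26 TPM in MCF10Ca1a. Its gene counts were 5250 to 5769, 2901 to 3553 and 413 to 432. No library of 1 line overlapped another line. The log2 change of NCAPH on counts was -0.72 ± 0.0668 (SE) in MCF10AT1 against MCF10A (edgeR adjusted p = 5.44e-07), -2.06 ± 0.0772 in MCF10Ca1a against MCF10AT1 (edgeR adjusted p = 1.76e-11) and -2.78 ± 0.0774 in MCF10Ca1a against MCF10A (edgeR adjusted p = 6.31e-13), which is 6.87-fold lower. Without MCF10A replicate 1 the changes against MCF10A were -0.65 and -2.73.

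NCAPG, a HEAT-repeat subunit held by the kleisin, was the most abundant of the 3 in MCF10A. It was at 113, 96.3 and 91.9 TPM there, at 62.1, 62.4 and 58.7 TPM in MCF10AT1 and at 29.6, 21.2 and 22.2 TPM in MCF10Ca1a, again without overlap. Its log2 change was -0.63 ± 0.0557 in MCF10AT1 against MCF10A (edgeR adjusted p = 3.30e-07), -1.67 ± 0.0592 in MCF10Ca1a against MCF10AT1 (edgeR adjusted p = 1.04e-11) and -2.30 ± 0.0600 in MCF10Ca1a against MCF10A (edgeR adjusted p = 3.51e-13), or 4.92-fold lower. Without MCF10A replicate 1 the changes against MCF10A were -0.59 and -2.27.

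NCAPD2, the other HEAT-repeat subunit of condensin I, fell less. It was at 94.7, 74.1 and 68.1 TPM in MCF10A, at 55.1, 52.5 and 50.1 TPM in MCF10AT1 and at 45.8, 41.7 and 47.0 TPM in MCF10Ca1a. The MCF10Ca1a values lay below all others, and MCF10A replicate 1 was well above its partners. The log2 change on counts was -0.44 ± 0.0812 in MCF10AT1 against MCF10A (edgeR adjusted p = 3.35e-04), -0.84 ± 0.0828 in MCF10Ca1a against MCF10AT1 (edgeR adjusted p = 4.01e-07) and -1.29 ± 0.0833 in MCF10Ca1a against MCF10A (edgeR adjusted p = 3.94e-09). Without MCF10A replicate 1 the changes against MCF10A were -0.33 and -1.18. On TPM the step from MCF10AT1 to MCF10Ca1a was smaller, at -0.23 (limma on log2(TPM + 1), adjusted p = 0.0928), and did not pass. On that scale the median of all genes in this comparison was 0.13, against -0.044 on counts.

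The CCAAT letters, another element common in promoters of cell cycle genes, stood beside TTTGAA in NCAPD2 (ENSG00000010292.13, chr12:6493356-6531955, plus strand), in 4 copies read as ATTGG on the strand shown. The first element itself lay from -145 to -140. This window of NCAPD2 (chr12:6493852-6494151) lies after the GENCODE 29 starts of the transcripts NCAPD2-201 (6493379) and NCAPD2-205 (6493401). That of NCAPD2-202 (6494093) falls within it. NCAPG (ENSG00000109805.10, chr4:17810902-17844862, plus strand) held the first element from -35 to -30 and no match to the other. NCAPH (ENSG00000121152.10, chr2:96335787-96373845, plus strand) held TTTAAA from 33 to 38, past the start site, and 1 copy of CCAAT from -112 to -108. The stretches of NCAPD2 and NCAPG run from -150 to 10 (chr12:6493952-6494111 and chr4:17810829-17810988), where 2 of the 4 ATTGG copies of NCAPD2 fall. That of NCAPH runs from 20 to 49 (chr2:96335785-96335814). Capitals mark both elements.
NCAPD2: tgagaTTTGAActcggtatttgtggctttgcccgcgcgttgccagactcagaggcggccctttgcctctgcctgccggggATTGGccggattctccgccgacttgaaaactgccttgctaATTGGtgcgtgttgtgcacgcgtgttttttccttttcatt
NCAPG: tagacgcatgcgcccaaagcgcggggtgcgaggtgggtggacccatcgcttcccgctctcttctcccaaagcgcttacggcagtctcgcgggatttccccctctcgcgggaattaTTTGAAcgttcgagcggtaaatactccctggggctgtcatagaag
NCAPH: tcgacgcgcgcgaTTTAAAaccagctcagg

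In condensin II the kleisin NCAPH2 fell far more than its HEAT-repeat partners in MCF10Ca1a. NCAPH2 was at 25.9, 24.6 and 23.6 TPM in MCF10A, at 18.9, 19.6 and 16.5 TPM in MCF10AT1 and at 8.25, 8.63 and 8.84 TPM in MCF10Ca1a, without overlap. Its log2 change on counts was -0.37 ± 0.0511 in MCF10AT1 against MCF10A (edgeR adjusted p = 2.84e-05), -1.47 ± 0.0575 in MCF10Ca1a against MCF10AT1 (edgeR adjusted p = 2.67e-11) and -1.84 ± 0.0573 in MCF10Ca1a against MCF10A (edgeR adjusted p = 1.885e-12), or 3.58-fold lower. Without MCF10A replicate 1 the changes against MCF10A were -0.36 and -1.84. The 95% interval of the last comparison ran from -1.96 to -1.72, and did not reach those of NCAPG2 (-1.07 to -0.78) or NCAPD3 (-0.98 to -0.73).

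NCAPG2, the counterpart of NCAPG, was at 46.4, 39.6 and 34.1 TPM in MCF10A, at 29.9, 29.1 and 29.6 TPM in MCF10AT1 and at 21.5, 22.6 and 22.6 TPM in MCF10Ca1a. All 3 ranges were apart, and the MCF10AT1 libraries lay within 1 TPM of each other. Its log2 change was -0.27 ± 0.0654 in MCF10AT1 against MCF10A (edgeR adjusted p = 0.00275), -0.65 ± 0.0675 in MCF10Ca1a against MCF10AT1 (edgeR adjusted p = 7.26e-07) and -0.92 ± 0.0675 in MCF10Ca1a against MCF10A (edgeR adjusted p = 1.54e-08). Without MCF10A replicate 1 the changes against MCF10A were -0.19 and -0.85.

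NCAPD3, the counterpart of NCAPD2, was at 38.2, 33.5 and 26.0 TPM in MCF10A, at 22.3, 22.3 and 21.1 TPM in MCF10AT1 and at 22.4, 21.2 and 17.3 TPM in MCF10Ca1a. On TPM the MCF10AT1 and MCF10Ca1a libraries overlapped, while on CPM they did not. The log2 change of NCAPD3 on counts was -0.46 ± 0.0564 in MCF10AT1 against MCF10A (edgeR adjusted p = 8.38e-06), -0.39 ± 0.0576 in MCF10Ca1a against MCF10AT1 (edgeR adjusted p = 2.65e-05) and -0.85 ± 0.0577 in MCF10Ca1a against MCF10A (edgeR adjusted p = 6.35e-09). Without MCF10A replicate 1 the changes against MCF10A were -0.41 and -0.82. On TPM the step from MCF10AT1 to MCF10Ca1a was -0.11 and did not pass (limma on log2(TPM + 1), adjusted p = 0.482).

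Of the condensin II promoters, that of NCAPD3 (ENSG00000151503.14, chr11:134150119-134225454, minus strand) held TTTGAA across the start site of its second window, from -3 to 3, with 2 ATTGG copies and 1 GGCGGGAA, an E2F-like motif, from -250 to -243. NCAPG2 (ENSG00000146918.20, chr7:158631311-158704829, minus strand) held TTTGAA from 36 to 41. NCAPH2 is ENSG00000025770.19, at chr22:50508216-50523472 on the plus strand. The stretch of NCAPD3 runs from -150 to 10 (chr11:134223958-134224117) and that of NCAPG2 from 20 to 49 (chr7:158704756-158704785), both read on the minus strand. Capitals mark TTTGAA and ATTGG.
NCAPD3: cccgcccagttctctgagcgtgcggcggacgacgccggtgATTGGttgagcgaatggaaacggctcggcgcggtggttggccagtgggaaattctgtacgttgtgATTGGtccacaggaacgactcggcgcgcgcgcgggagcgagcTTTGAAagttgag
NCAPG2: ggcgccggcgggtgcgTTTGAAtctggtcc

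The RefSeq table gave 10 promoter windows, 250 bases before to 50 after the start, for 7 of the 8 genes. TTTGAA, on either strand, was in 6 of the 10 windows, against 15.2% of all 35116 windows, and in at least 1 window of 6 of these 7 genes, against 18.2% of all 27305 genes in the table. TTTGAA or TTTAAA was in 7 of 10 windows, against 23.99% of all windows, and in a window of 7 of 7 genes, against 27.9% of all genes. Of the 7 genes 3 have 2 windows, and either element was in 35.4% of the 3606 genes with 2 windows and in 24.9% of the 22114 genes with 1. CCAAT was in 3 of the 10 windows, against 34.6% of all windows. GGCGGGAA was in 1 of 10 windows (3.16% of all) and TTTGGCGC in 0 of 10 (0.652% of all). The motifs were searched on both strands, TTTAAA is its own reverse complement, and no match in the member windows overlapped another. Median GC content was 62.3% in the member windows and 58.7% in all windows. A match here describes letters in a window and was not tested against binding or the RNA changes.

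**Figure D2:**
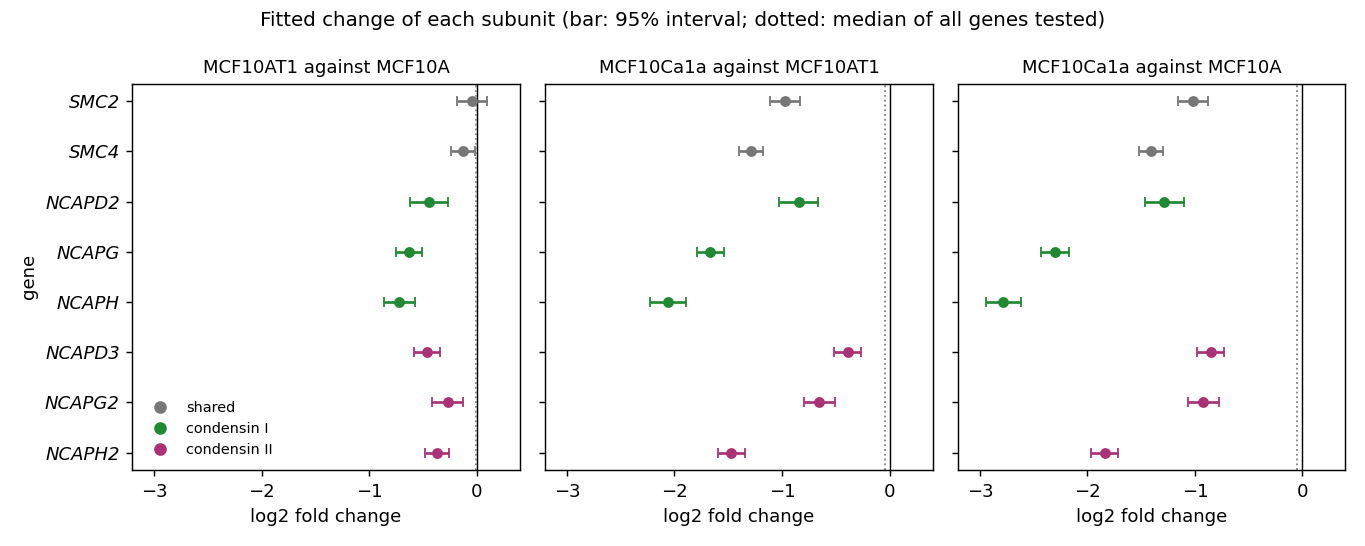
Fitted log2 fold change of each subunit in the 3 comparisons of lines, coloured by complex, with 95% intervals and a dotted line at the median of all genes tested. In both comparisons with MCF10Ca1a every subunit lies below 0, from -2.78 for NCAPH to -0.39 for NCAPD3.

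The contrast of the complexes was drawn first on summed TPM, which describes the members and was given no test. Condensin I summed to 228 ± 32.5 TPM (SD, n = 3) in MCF10A, 143 ± 5.55 in MCF10AT1 and 77.9 ± 6.02 in MCF10Ca1a. Condensin II summed to 97.3 ± 13.5, 69.8 ± 2.19 and 51.1 ± 2.09 TPM. Condensin I RNA thus exceeded condensin II RNA in every library. The ratio of condensin I to condensin II was 2.39, 2.21 and 2.43 in the MCF10A libraries, 2.07, 2.04 and 2.03 in MCF10AT1 and 1.61, 1.38 and 1.59 in MCF10Ca1a. The ratios were lower from each line to the next, without overlap. On the log2 scale the ratio moved by -0.19 in MCF10AT1 against MCF10A and by -0.62 in MCF10Ca1a against MCF10A. Condensin I made up 70.1% ± 1.06, 67.2% ± 0.218 and 60.3% ± 2.10 of the RNA of the 6 subunits outside the core. The core genes SMC2 and SMC4 together summed to 301 ± 12.5, 267 ± 12.4 and 127 ± 10.1 TPM. Their sum relative to the other 6 subunits was highest in MCF10AT1, at 1.26 ± 0.0167, against 0.934 ± 0.0879 in MCF10A and 0.986 ± 0.0299 in MCF10Ca1a.

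Within pairs of subunits that take the same place in the 2 complexes, the ratios of the kleisin pair and the G pair were apart in the 3 lines, and in the D pair MCF10A and MCF10AT1 overlapped while MCF10Ca1a overlapped them through 1 library. NCAPH over NCAPH2, the kleisins, was 2.18, 1.85 and 1.82 in MCF10A, then 1.58, 1.52 and 1.67 in MCF10AT1, and then 1.08, 1.07 and 0.934 in MCF10Ca1a. The lines did not overlap, and the mean log2 ratio differed by -0.92 in MCF10Ca1a against MCF10A, by -0.63 in MCF10Ca1a against MCF10AT1 and by -0.29 in MCF10AT1 against MCF10A. NCAPG over NCAPG2 was 2.44, 2.44 and 2.70 in MCF10A, then 2.08, 2.15 and 1.98 in MCF10AT1, and then 1.37, 0.941 and 0.981 in MCF10Ca1a. These ratios did not overlap either, with differences of -1.22, -0.93 and -0.29 in the same order. NCAPD2 over NCAPD3 was 2.48, 2.21 and 2.62 in MCF10A, then 2.47, 2.36 and 2.37 in MCF10AT1, and then 2.04, 1.96 and 2.72 in MCF10Ca1a. MCF10Ca1a replicate 3 lay above every other library, while replicates 1 and 2 lay below all libraries of both other lines. The NCAPD3 transcript ENST00000687965.1 was listed at 4.53, 3.46 and 0 TPM in MCF10Ca1a replicates 1, 2 and 3, on 55, 40 and 0 counts. CPM of NCAPD3 was 68.6, 66.4 and 65.9 in these libraries. The part of this transcript in the ratio was not tested. The differences of NCAPD2 over NCAPD3 were -0.13, -0.11 and -0.017 in that order, with exact permutation p of 0.5, 0.4 and 0.9. Without MCF10Ca1a replicate 3 the first pair of differences was -0.28 and -0.26, and MCF10Ca1a no longer overlapped the other lines. With 3 libraries against 3 the exact two-sided permutation test cannot go below 0.1, which was the p of all 6 comparisons of the other pairs (0.15 after Benjamini-Hochberg over the 9 tests), so none passed. On CPM the D pair differed by -0.43 in MCF10Ca1a against MCF10A and by -0.46 against MCF10AT1 (exact permutation p = 0.1 each).

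**Figure D3:**
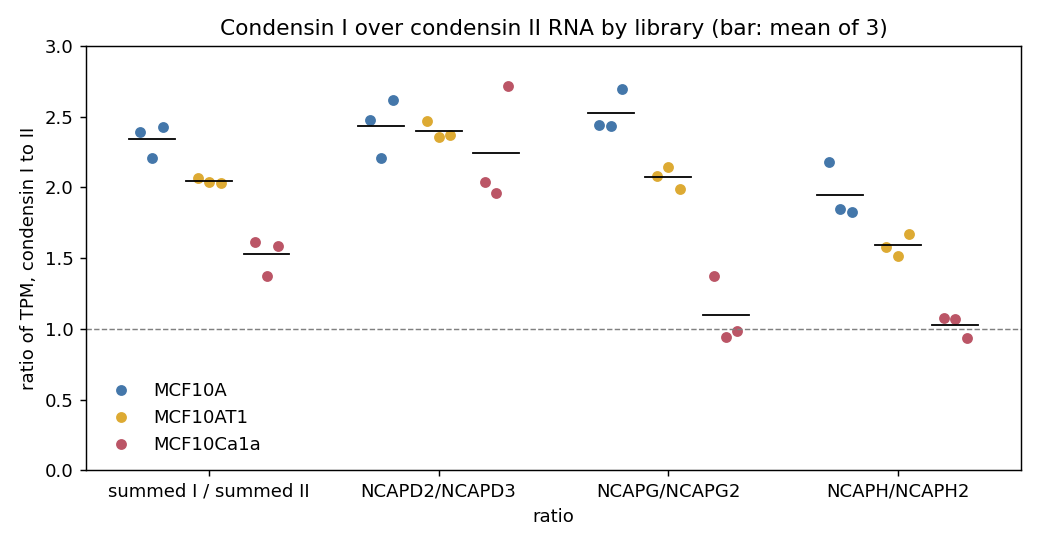
Ratio of condensin I to condensin II RNA in each library on TPM, for the summed subunits and for the 3 corresponding pairs, with a bar at the mean of 3 libraries and a dashed line at equal levels. In MCF10Ca1a the NCAPG and NCAPH pairs scatter around 1, while the NCAPD2 to NCAPD3 ratio is 2.04 and 1.96 in replicates 1 and 2 and 2.72 in replicate 3.

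The order of the subunits by TPM changed between lines. In MCF10A it ran SMC4 (252 ± 6.94), NCAPG (101 ± 11.4), NCAPD2 (78.9 ± 13.9), SMC2 (48.5 ± 6.09), NCAPH (48.3 ± 7.17), NCAPG2 (40.0 ± 6.18), NCAPD3 (32.6 ± 6.16) and NCAPH2 (24.7 ± 1.18, all SD, n = 3). The ranges of 4 neighbouring pairs overlapped there, namely NCAPG with NCAPD2, SMC2 with NCAPH, NCAPH with NCAPG2 and NCAPG2 with NCAPD3. In MCF10AT1 the order was SMC4 (223 ± 9.77), NCAPG (61.1 ± 2.05), NCAPD2 (52.6 ± 2.53), SMC2 (44.6 ± 2.90), NCAPG2 (29.5 ± 0.392), NCAPH (29.1 ± 1.21), NCAPD3 (21.9 ± 0.682) and NCAPH2 (18.3 ± 1.60). Only the ranges of NCAPG2 and NCAPH overlapped. In MCF10Ca1a it was SMC4 (101 ± 10.9), NCAPD2 (44.8 ± 2.75), SMC2 (26.4 ± 0.993), NCAPG (24.3 ± 4.56), NCAPG2 (22.2 ± 0.620), NCAPD3 (20.3 ± 2.70), NCAPH (8.79 ± 0.498) and NCAPH2 (8.57 ± 0.299). There the run from SMC2 to NCAPD3 overlapped from each neighbour to the next, as did the 2 kleisins. The kleisins were thus the least abundant subunits in MCF10Ca1a, each below every other subunit in all 3 libraries, while in MCF10A NCAPH was among the middle of the order.

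Profiles across the 9 libraries partly cut across the complexes. The distance between 2 subunits was the root mean square difference of log2 CPM, each centred on its mean. Of the 28 pairs the closest was NCAPD3 with NCAPG2, both of condensin II (0.120), followed by SMC2 with NCAPG2 (0.139) and NCAPD2 with NCAPG2 (0.158). NCAPH2 lay nearer to SMC4 (0.186) and to NCAPG of condensin I (0.196) than to NCAPG2 (0.420) or NCAPD3 (0.495) of its own complex. NCAPD2 lay nearer to NCAPD3 (0.219) than to NCAPG (0.446) or NCAPH (0.652). Within their own groups, SMC2 with SMC4 lay at 0.180, and NCAPH had NCAPG of condensin I as its nearest subunit (0.212). NCAPH with NCAPD3 was the farthest pair (0.853). The genes outside condensin whose profiles lay closest to the mean profile of condensin I, among 11990 genes compared over 9 libraries, were SHCBP1 (0.0195), ASF1B (0.0437) and RIPK1 (0.0531). Closest to condensin II were ENTPD1-AS1 (0.0291), ZNF395 (0.0337) and NUP50 (0.0357), and closest to the shared core were POLA1 (0.0316), SPATS2L (0.0363) and EIF4G2 (0.0377). The members lay 0.0834 to 0.365 from the mean profile of their own complex or core. The genes outside condensin were picked as the closest of 11990, so their smaller distances cannot be read as a result. With 3 lines, most of such a distance rests on 3 group means.

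Transcript composition of the subunit genes differed in MCF10Ca1a. Of 65193 transcripts tested for their share of their gene (limma on log2 ratios of counts), 70 belonged to the 8 genes. In MCF10AT1 against MCF10A, 0 of the 70 passed at an adjusted p under 0.05 (1.94% of all transcripts passed), 11 had an unadjusted p under 0.05 (15.4% of all transcripts), and limma with a prior count of 5 passed 3 (2.99% of all). In MCF10Ca1a against MCF10A 17 of 70 passed, beside 21.1% of all transcripts. In MCF10Ca1a against MCF10AT1 10 of 70 passed, beside 15.9%. The members' shares were thus near the background in both. Without MCF10Ca1a replicate 3 these counts were 10 and 6, beside 17.8% and 12.9% of all transcripts, and without MCF10A replicate 2 the first was 11, beside 14.5%. The second was 4, 6 and 6 without MCF10AT1 replicates 1, 2 and 3 in turn, beside 9.82%, 10.1% and 9.88%. No transcript of SMC2 passed in any comparison. Reads are assigned to transcripts by estimation, and the uncertainty of that step was not used here.

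In NCAPD2 a short non-coding transcript gained estimated share of TPM in MCF10Ca1a. NCAPD2-205 (ENST00000536538.1) is annotated as a processed transcript of 2 exons and 765 bases at the 5′ end of the gene, chr12:6493401-6495165. Its share of the gene's TPM was 5.59%, 5.66% and 4.46% in MCF10A, then 4.08%, 5.38% and 5.08% in MCF10AT1, and then 18.3%, 19.9% and 17.8% in MCF10Ca1a. Its own level was 3.04 to 5.30 TPM in MCF10A, 2.25 to 2.83 in MCF10AT1 and 8.28 to 8.40 in MCF10Ca1a, above every library of the other lines. The share test gave an adjusted p of 2.21e-04 (limma) against MCF10A and 2.53e-04 against MCF10AT1. The counts behind it were small, from 65 to 124 per library. In MCF10Ca1a they were 106, 97 and 107, where the gene had 3985, 3495 and 4123. The 5′ end of NCAPD2-205 lies within MRPL51 on the opposite strand (chr12:6491886-6493841). MRPL51 averaged 258 TPM in MCF10A, 280 in MCF10AT1 and 178 in MCF10Ca1a. Whether the counting used strand is not given, so reads in that overlap are uncertain. The 32-exon coding transcript NCAPD2-201 (ENST00000315579.10, 5548 bases) went the other way, from 81.2% ± 2.59 in MCF10A and 81.7% ± 1.39 in MCF10AT1 to 61.7% ± 1.15 in MCF10Ca1a (limma adjusted p = 0.00153 and 0.00240). NCAPD2-201 itself was at 53.4 to 79.2 TPM in MCF10A, 41.6 to 44.2 in MCF10AT1 and 26.3 to 28.6 in MCF10Ca1a, a wider gap between the last lines than that of the whole gene on TPM.

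Both other genes with a large shift in share belong to condensin II. NCAPG2-203 (ENST00000409423.5, 29 exons) was nearly level in TPM, at 4.60 to 6.26 in MCF10A, 5.11 to 5.89 in MCF10AT1 and 5.31 to 5.74 in MCF10Ca1a, while the gene fell. Its share was 13.0% ± 0.888, 18.6% ± 1.42 and 24.9% ± 0.480 (limma adjusted p = 0.00314 in MCF10Ca1a against MCF10A). NCAPG2-205 (ENST00000441982.5, 22 exons) went from 12.2% ± 0.787 in MCF10A and 7.46% ± 0.999 in MCF10AT1 to 1.10% ± 1.32 in MCF10Ca1a, with 0, 36 and 11 counts in the last libraries. Its call in MCF10Ca1a against MCF10A (limma adjusted p = 0.0291) was lost without any 1 of the MCF10A replicates 1, 2 and 3 (0.07, 0.0798 and 0.0781) or without MCF10Ca1a replicate 3 (0.0557). NCAPH2-202 (ENST00000395698.7), a coding transcript of 9 exons, was at 15.2%, 13.4% and 18.2% in MCF10A, then 24.9%, 24.7% and 20.9% in MCF10AT1, and then 35.2%, 35.1% and 35.4% in MCF10Ca1a. The shift against MCF10A passed (limma adjusted p = 0.00171). That against MCF10AT1 (limma adjusted p = 0.0291) was lost in 6 of 9 fits that left out a library, those without any 1 of the MCF10AT1 or MCF10Ca1a replicates (adjusted p = 0.0586 to 0.0851).

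**Figure D4:**
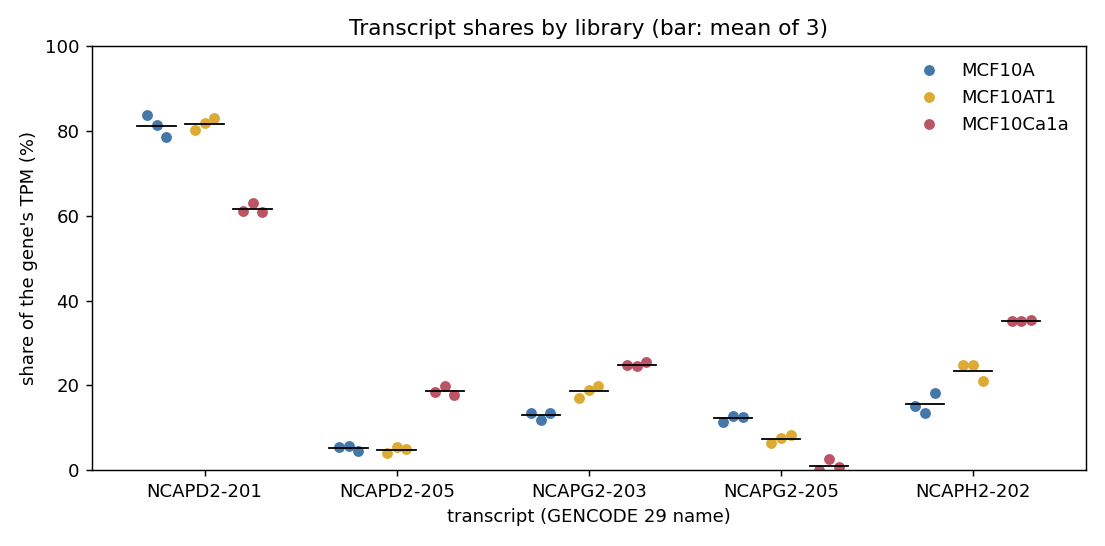
Share of its gene's TPM, in percent, of the 5 transcripts whose share test passed and whose mean share differed by at least 10 percentage points between 2 lines, 1 point per library and a bar at the mean of 3. NCAPD2-201 falls and NCAPD2-205 rises in MCF10Ca1a, where NCAPD2-205 lies between 17.8% and 19.9%.

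A pair of further transcripts was chosen after their values were seen. NCAPH-201 (ENST00000240423.9), an 18-exon transcript of the condensin I kleisin, fell in share from 9.62% ± 0.482 in MCF10A to 2.02% ± 0.748 in MCF10Ca1a (limma adjusted p = 0.00144), with 3.59% to 4.34% in MCF10AT1. SMC4-205 (ENST00000465563.5, a retained-intron transcript) was listed at 0, 33.5 and 32.5 TPM in MCF10A, at 32.0, 29.9 and 34.3 TPM in MCF10AT1 and at 0 in all MCF10Ca1a libraries, and passed in no comparison. MCF10A replicate 1 thus differed from its partners here by an all-or-none value.

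Among 20 regulators and partners of condensin, most moved in the same direction as the subunits. In MCF10AT1 against MCF10A 15 were lower, 1 was higher and 4 did not pass (edgeR, where 31.8% of all genes were called lower and 29.8% higher), with a median log2 change of -0.33. In MCF10Ca1a against MCF10A 16 were lower (41.9% of all genes), 3 were higher (39.0%) and 1 did not pass, with a median of -2.18. In MCF10Ca1a against MCF10AT1 the counts were again 16 (40.3% of all genes lower), 3 (38.0% higher) and 1, with a median of -1.64. The number called higher in MCF10AT1 against MCF10A was 0 to 3 when a library was left out. PLK1, the mitotic kinase that phosphorylates condensin II, had the lowest value of the list in MCF10Ca1a against MCF10A, -3.70 ± 0.0817 (edgeR adjusted p = 7.31e-14), and was at 131 to 173 TPM in MCF10A, 75.1 to 81.4 in MCF10AT1 and 11.4 to 13.4 in MCF10Ca1a. CSNK2A1, a catalytic subunit of casein kinase 2, which phosphorylates condensin I in interphase, had the highest, at 1.25 ± 0.0694 (edgeR adjusted p = 7.47e-10). Its level was 101 to 142 TPM in MCF10A, 109 to 120 in MCF10AT1 and 310 to 333 in MCF10Ca1a. MCPH1, which restrains condensin II in interphase, passed in no comparison, with log2 changes of 0.09, 0.02 and -0.06 in the 3 comparisons taken in the order above (edgeR adjusted p = 0.176, 0.703 and 0.303). This depended on the processing. It passed in 1, 5 and 5 of 20 alternative settings in the same order, higher in all of those against MCF10A, and in the last comparison higher in 3 (all on TPM) and lower in 2. MCPH1 was at 19.3, 17.6 and 16.3 TPM in the MCF10A libraries, at 18.0, 18.1 and 15.8 in those of MCF10AT1 and at 21.7, 22.2 and 22.0 in those of MCF10Ca1a, above every library of the other lines. On log2(TPM + 1) its difference was 0.30 from MCF10A and 0.33 from MCF10AT1, and both passed (limma adjusted p = 0.00466 and 0.00259). With scaled counts it was 0.16 above MCF10A and with length-scaled counts 0.15 (edgeR adjusted p = 0.0243 and 0.0385), and with no filter on low counts it was -0.15 against MCF10AT1 (edgeR adjusted p = 0.0412). Leaving out MCF10AT1 replicate 3 gave counts-based changes of 0.14 for MCF10AT1 against MCF10A and -0.13 for MCF10Ca1a against MCF10AT1, which passed as well (edgeR adjusted p = 0.0334 and 0.0394). TOP2A, the topoisomerase that untangles sister DNA alongside condensin, changed by -0.64, -1.88 and -1.25 in that order, and MKI67, which coats mitotic chromosomes, by -0.42, -1.76 and -1.35, and all 6 values passed (edgeR).

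Genes of other structural maintenance of chromosomes (SMC) complexes, cohesin and SMC5/6, moved in both directions when taken as 1 list. Of 11, 6 were lower and 3 higher in MCF10AT1 against MCF10A, 8 were lower and 2 higher in MCF10Ca1a against MCF10A, and 5 were lower and 2 higher in MCF10Ca1a against MCF10AT1 (edgeR). Over all genes 31.8%, 41.9% and 40.3% were lower and 29.8%, 39.0% and 38.0% higher in these comparisons. The medians of the list were -0.31, -0.94 and 0.011. The cohesin genes SMC1A, SMC3, RAD21, STAG1 and STAG2 were all lower in both comparisons against MCF10A. In MCF10Ca1a against MCF10A they ran from -1.97 for RAD21 to -0.23 for STAG2. In MCF10Ca1a against MCF10AT1, SMC1A, RAD21 and STAG1 were lower, and SMC3 and STAG2 did not pass. The higher calls were all in SMC5/6, which also had lower calls in each comparison. SMC5, the partner ATPase of SMC6 in DNA repair, rose in MCF10Ca1a against MCF10A by 0.89 ± 0.0546 (edgeR adjusted p = 2.10e-09), while NSMCE4A of the same complex changed by -2.05 ± 0.0718 there (edgeR adjusted p = 5.87e-12) and by 0.45 in MCF10AT1 against MCF10A. Of 15 replication licensing and S-phase genes, 7 were lower and 2 higher in MCF10AT1 against MCF10A, 15 of 15 were lower in MCF10Ca1a against MCF10A and 14 of 15 in MCF10Ca1a against MCF10AT1, beside the same shares of all genes (31.8%, 41.9% and 40.3% lower, and 29.8% higher in the first). Their medians were -0.12, -1.27 and -1.19. TYMS, which makes thymidylate, had the lowest change in MCF10Ca1a against MCF10A (-2.97) and CDT1, a licensing factor, the smallest fall (-0.51). The S-phase medians lay near the median of the 8 subunits in both comparisons with MCF10Ca1a. The part of the cell cycle in the change of the subunits was not tested.

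**Figure D5:**
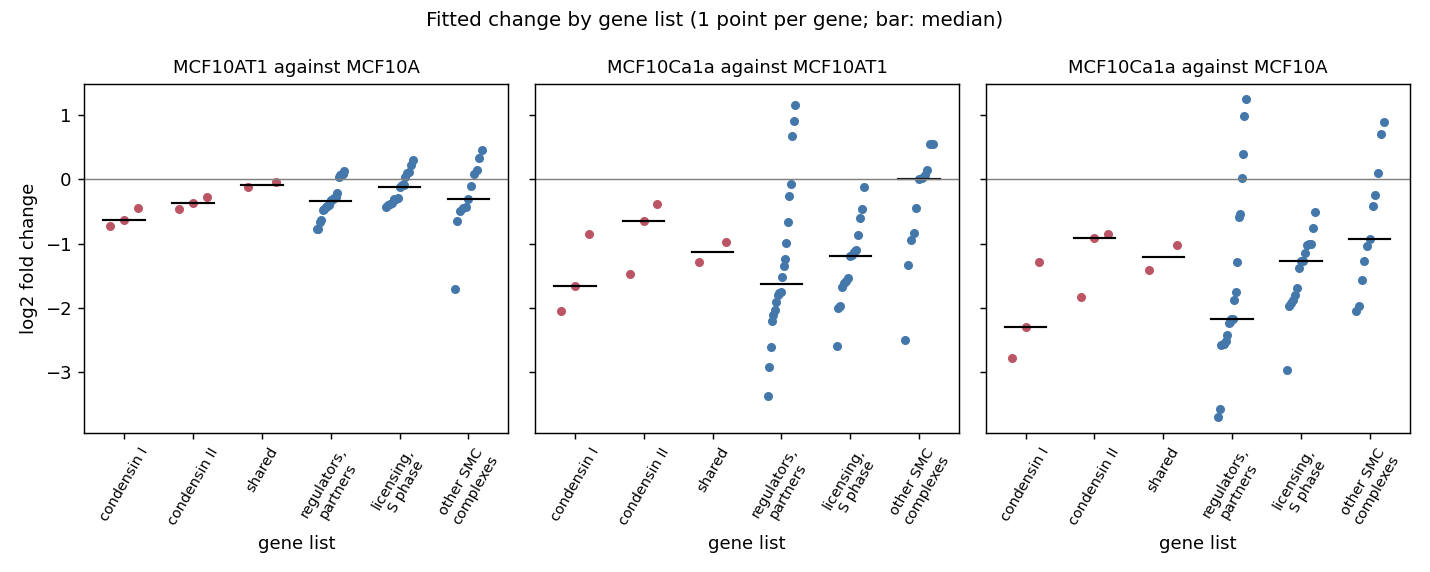
Fitted log2 fold change of each gene, by gene list, in the 3 comparisons of lines, with a bar at the list median. In both comparisons with MCF10Ca1a the 8 subunits and all 15 S-phase genes lie below 0, and the other SMC complexes spread on both sides of it.

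In MCF10Ca1a against MCF10A the medians of neighbouring genes lay nearer to 0 than the subunits. Genes tested within 1 Mb numbered 3 to 47 per subunit, and their median log2 change lay between -0.32 (6 neighbours of NCAPG) and 0.26 (3 neighbours of NCAPG2), above the change of the subunit in all 8 cases. For NCAPG and NCAPH, 0 of 6 and 0 of 22 neighbours had a lower value than the subunit. Of the 47 neighbours of NCAPD2, 11 had a lower value. In the other comparisons the neighbour median also lay above each subunit, but in places by little. NCAPD3 changed by -0.39 in MCF10Ca1a against MCF10AT1, beside a neighbour median of -0.32, and 3 of 6 neighbours had a lower value. NCAPD2 changed by -0.44 in MCF10AT1 against MCF10A, beside -0.27, and 20 of 47 neighbours had a lower value. SMC2 lies on chromosome 9, where the median of 693 genes was 0.48 in MCF10AT1 against MCF10A and 0.34 in MCF10Ca1a against MCF10A. The values of SMC2 itself were -0.045 and -1.02. Of the genes that overlap a subunit in the annotation, TRIM59, opposite to SMC4, fell beside it (19.0, 15.1 and 8.74 mean TPM, log2 change -1.21 in MCF10Ca1a against MCF10A, edgeR adjusted p = 2.85e-10). MRPL51, opposite to the 5′ end of NCAPD2, changed by -0.76 there (edgeR adjusted p = 7.47e-08). The log2 change there was -0.35 for IFT80 opposite to SMC4, which passed, and -0.03 for LCORL opposite to NCAPG and -0.06 for VPS26B opposite to NCAPD3, which did not. JAM3, opposite to NCAPD3, was under 1 TPM on average in every line. The kit keeps strand, but whether the counting used it is not given in the sources used here, so reads where opposite genes overlap are uncertain. SMC2, NCAPH, NCAPG2 and NCAPH2 have no overlapping gene in the annotation.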

How the data were processed

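Polyadenylated RNA of MCF10A, MCF10AT1 and MCF10Ca1a was sequenced in 3 stranded Illumina mRNA libraries per line, per the labels. The authors deposited estimated counts and TPM values per gene and per transcript, and the submitters' processing notes name Salmon and hg38. No version, annotation or strand setting is given in the sources used here. Columns were matched to libraries by name.

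Gene counts were rounded and tested with edgeR 4.0.16 (R 4.3.3; filterByExpr by line with a minimum count of 10 and a minimum total of 15, TMM factors 0.978 to 1.02, quasi-likelihood test, 9 libraries in 1 fit, Benjamini-Hochberg over 17910 genes at 0.05). Standard errors were derived from the F test of each fold change. The deposited TPM values gave levels, sums and ratios. Transcript shares were tested with limma 3.58.1 on log2 ratios of a transcript's counts to the rest of its gene, with a prior count of 1, over transcripts with a mean of at least 10 counts in genes with a mean of at least 50. The edgeR and limma tests were first tested on simulated data. Alternatives were DESeq2 1.42.0, its size factors, no filter, the deposited length-scaled and scaled counts, thinning to the smallest library, limma on TPM (pseudocount 1 or 0.1), a replicate block and leaving out each library.

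Depth was 32.9 to 69.5 M counts. No library duplicated another (chi-square per degree of freedom 2.51 to 74.8 between replicates). Positions came from GENCODE 29 on GRCh38, which matched 58227 of 62666 genes, and promoter sequences from RefSeq on GRCh38.p14. All 8 subunits were named, and of each other list the genes with the largest and smallest change in MCF10Ca1a against MCF10A, besides MCPH1, TOP2A, MKI67 and HRAS. The cohesin genes were named after their values were seen. Transcripts were named where they passed the share test and differed by at least 10 percentage points in mean share. NCAPH-201, SMC4-205 and ENST00000687965.1 of NCAPD3 were chosen besides, after their values were seen. The members and lists were chosen with earlier results of these data known.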

Additional observations from a re-analysis of the deposited data

How the results depend on the processing

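Over 20 alternatives per comparison, the 8 subunits kept their fall in MCF10Ca1a against MCF10A, and in MCF10AT1 against MCF10A the number called was 6 or 7. SMC4 was the call lost there, and SMC2, not called, turned to 0.010 with length-scaled counts, 0.0098 with scaled counts and 0.028 without MCF10A replicate 1 (-0.11 to 0.028 when a library was left out). In MCF10Ca1a against MCF10AT1, NCAPD2 and NCAPD3 did not pass in the 3 fits of limma on TPM (adjusted p up to 0.176 and 0.616), where genes called split into 8141 higher and 5050 lower on log2(TPM + 1), against 6808 and 7226 on counts. In MCF10AT1 against MCF10A that split was 3373 and 6040 on TPM against 5335 and 5690 on counts, and in MCF10Ca1a against MCF10A 7481 and 6102 against 6979 and 7512. The cause was not tested.

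The log2 ratio of NCAPD2 to NCAPD3 in MCF10AT1 against MCF10A turned to 0.028 on CPM and 0.037 without MCF10A replicate 3 (-0.086 to 0.037 when a library was left out). The log2 ratio of condensin I to condensin II moved to -0.74 on CPM and -0.76 as a mean of log2 TPM in MCF10Ca1a against MCF10A, and to -0.56 and -0.56 in MCF10Ca1a against MCF10AT1 (-0.43 on summed TPM). Transcript shares passing in MCF10AT1 against MCF10A were 3 with a prior count of 5 and 1 on TPM (2.99% and 2.07% of all transcripts), and 0 to 2 when a library was left out (1.24% to 1.72%). Leaving out a library gave 10 to 18 in MCF10Ca1a against MCF10A (14.5% to 18.8%) and 4 to 11 in MCF10Ca1a against MCF10AT1 (9.82% to 15.1%).

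Replicate numbers did not pair the libraries (correlation of same-numbered deviations -0.0597 to 0.0451). With the replicate block the subunits called were 6, 8 and 8 in the 3 comparisons (of 17910 genes, 5578, 7457 and 7169 were called lower), and transcript shares passing in MCF10Ca1a against MCF10AT1 were 5 (9.84% of all transcripts), without that of NCAPH2-202 (adjusted p = 0.0863). MCF10Ca1a libraries were the shallowest, which limits transcripts with few counts.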
